A study of Mus musculus with 6 samples.

Results

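The genes described here are 36 genes of the core autophagy machinery and of the receptors that bring cargo to it. They were chosen by symbol for their known roles, and each matched 1 of the 25700 Ensembl identifiers in the count files. The measurements came from bulk RNA-Seq of bone marrow-derived macrophages (BMDMs), which are macrophages grown from the marrow of the femur and tibia. All cultures came from C57BL/6J mice of 8 to 10 weeks and grew with M-CSF (100 ng/ml), the growth factor that drives macrophage differentiation. On day 3, the heme-treated cultures received 300 μM heme-albumin (3 libraries, called heme 1 to 3), and the controls received albumin alone (3 libraries, called control 1 to 3). RNA was collected on day 7, and each library came from the macrophages of a single mouse. The comparison asks how a prolonged load of heme, given here as heme-albumin and not within red blood cells, went together with mRNA of the autophagy genes. Neither protein nor autophagic flux was measured in these libraries, and bulk RNA cannot tell fewer cells of a type from less RNA per cell.

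Autophagy encloses cytoplasm, damaged organelles or microbes in a double membrane, the autophagosome, which then fuses with lysosomes. The ULK1 kinase complex starts the process, a class III PI3-kinase complex marks the membrane with the lipid PI3P, and lipid-transfer and membrane proteins supply the growing sheet. A ubiquitin-like conjugation system then attaches ATG8 proteins (the LC3 and GABARAP subfamilies) to that membrane, and cargo receptors bind both ATG8 proteins and ubiquitin-tagged cargo. In macrophages, the pathway is known for clearing bacteria and damaged organelles. The receptor p62, the product of Sqstm1, also binds KEAP1, the inhibitor of the antioxidant transcription factor NRF2, and Sqstm1 is itself known as an NRF2 target gene.

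Sequences before a transcription start are shown for 5 genes. Sqstm1 had the largest change among the 36 genes. Atg3, Atg5 and Atg7 are the genes called higher that held CACGTG, and were picked for it, and Atg4a is a conjugation gene that was also higher and held neither pattern searched. Each sequence is the run of 250 bases before the RefSeq transcription start (GRCm38.p6), 5′ to 3′ on the strand of the gene. Capitals mark CACGTG, the palindromic E-box core that the autophagy and lysosome regulator TFEB and many other factors can bind. The same windows were searched for TGACNNNGC, a core of the antioxidant response element that NRF2 binds with small MAF proteins, and none of the 5 held it. Sequence farther from the start was not searched, so a window without the pattern does not mean a gene without such a site. The Atg7 stretch lies before an internal RefSeq start, 28.0 kb inside the gene as GENCODE draws it.
Sqstm1 (chr11:50210821-50211070, minus strand): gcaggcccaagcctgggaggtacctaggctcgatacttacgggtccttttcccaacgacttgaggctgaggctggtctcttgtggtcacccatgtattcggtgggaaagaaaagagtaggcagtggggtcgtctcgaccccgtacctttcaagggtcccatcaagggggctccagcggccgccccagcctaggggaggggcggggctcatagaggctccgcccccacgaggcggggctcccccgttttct
Atg3 (chr16:45158579-45158828, plus strand): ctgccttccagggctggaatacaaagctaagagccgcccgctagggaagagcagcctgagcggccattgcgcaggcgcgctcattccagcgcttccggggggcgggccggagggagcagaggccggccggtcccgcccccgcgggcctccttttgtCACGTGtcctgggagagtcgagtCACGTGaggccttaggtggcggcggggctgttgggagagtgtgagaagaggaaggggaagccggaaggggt
Atg5 (chr10:44268089-44268338, plus strand): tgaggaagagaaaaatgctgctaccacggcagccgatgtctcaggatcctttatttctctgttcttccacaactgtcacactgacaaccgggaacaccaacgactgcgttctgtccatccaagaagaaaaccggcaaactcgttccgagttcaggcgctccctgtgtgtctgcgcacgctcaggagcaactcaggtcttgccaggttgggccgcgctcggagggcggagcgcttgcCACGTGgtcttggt
Atg7 (chr6:114670846-114671095, plus strand): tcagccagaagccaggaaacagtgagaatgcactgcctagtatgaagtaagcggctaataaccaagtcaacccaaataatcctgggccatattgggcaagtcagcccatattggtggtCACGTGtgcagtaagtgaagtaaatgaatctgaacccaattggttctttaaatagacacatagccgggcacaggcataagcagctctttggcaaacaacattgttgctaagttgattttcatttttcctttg
Atg4a (chrX:140956657-140956906, plus strand): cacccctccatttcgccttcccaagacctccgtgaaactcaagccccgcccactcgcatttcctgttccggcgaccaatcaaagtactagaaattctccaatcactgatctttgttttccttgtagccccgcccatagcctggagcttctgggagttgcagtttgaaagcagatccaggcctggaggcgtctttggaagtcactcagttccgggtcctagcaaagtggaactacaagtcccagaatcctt

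The search covered windows of 300 bases (250 before and 50 after each start, both strands) for the 30 of the 36 genes that matched the RefSeq promoter table. The other genes are Pik3c3, Atg16l1, Rb1cc1, Map1lc3a, Becn1 and Atg12. CACGTG occurred in windows of 4 genes, Atg3 (94 and 71 bases before the start), Atg5 (14 bases before it), Atg7 (132 bases before it) and Atg14 (across the start). It was in 11.8% of the 34 windows of these genes, against 7.15% of the 32851 windows of all genes. TGACNNNGC was in the windows of Atg13, Tax1bp1, Ulk2 and Map1lc3b, again 11.8% of the 34 windows, against 12.4% of all windows. No gene held both patterns. Of the conjugation genes called higher, Atg4a, Atg4c and Atg10 had windows without CACGTG, and a match describes letters only.

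The libraries held 27201038 to 32366848 counts with heme and 30509099 to 32994595 counts in controls, and all 36 genes passed the filter on low counts, as did 12433 genes in all. Of 8 macrophage markers (among them Csf1r, Adgre1 and Cd68), 1 (Itgam) was called higher and 6 lower, with a summed level of 36200 to 39500 CPM in the heme libraries and 31800 to 37600 CPM in the control libraries. Most of that sum was Lyz2, which was not called, and the 7 other markers summed to 5240 to 5550 CPM with heme and 6610 to 7320 CPM in controls. CPM, as printed here, are counts relative to library size, scaled between libraries by TMM, a method that assumes most genes do not change. Of 11 neutrophil markers, 8 were tested, 7 of them called higher and 1 (Csf3r) lower. They summed to 123 to 165 CPM with heme and 57.8 to 117 CPM in controls, and without Csf3r to 90.0 to 133 CPM with heme and 6.99 to 11.2 CPM in controls. Ly6g, Camp and Retnlg were not tested. They averaged 0.109, 0.507 and 0.0499 CPM with heme, and 0.00995, 0.0885 and 0.157 CPM in controls. Of 5 monocyte markers, 4 were called higher and 1 (Ccr2) lower. They summed to 98.1 to 109 CPM with heme and 33.9 to 37.3 CPM in controls, and without Ccr2 to 88.3 to 94.6 CPM with heme and 11.0 to 12.2 CPM in controls. T, NK and B cell, dendritic cell, erythroid and stromal markers summed to under 2 CPM in every library, with Cd3e, Cd3g and Cd8a at 0. Whether cells of these types were present was not tested, nor was their part in the results below. Within their group, heme 1 was the highest library for 21 of the 36 genes and heme 2 the lowest for 24, and control 2 was the highest for 27 and control 1 the lowest for 28. Calls that changed without 1 library are given with the gene.

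Heme-treated BMDMs carried much more mRNA of the receptor gene Sqstm1 and modestly more of most conjugation genes, less mRNA of the kinase gene Ulk2 and of the receptor genes Optn and Calcoco1, and small or undetected differences in most other core genes. Of the 36 genes, 15 were called higher (41.7%) and 7 lower (19.4%) in edgeR's test at an adjusted p under 0.05, and 14 were not called. Among all tested genes, 62.5% were called, 31.7% higher and 30.8% lower, so the 61.1% called here is close to the share of the whole transcriptome. The groups of libraries did not overlap for 26 of the 36 genes (72.2%), against 68.8% of all tested genes. Sizes were modest. Only Sqstm1, Ulk2 and Optn had a log2 fold change (heme over control) of at least 1 in size, 8.33% of these genes, against 19.6% of all tested genes. At a size of 0.5, 8 genes (22.2%) passed, against 40.7%. The median log2 fold change was 0.12, and 0.0041 over all tested genes. Scaling mattered for the direction of small changes. When counts were scaled by library size alone, the median of all genes moved to -0.22, and 5 of the 36 genes were called higher (Sqstm1, Tax1bp1, Atg3, Atg4a and Atg13) and 16 lower. Every direction below is therefore relative to the TMM scaling. Without control 1, 13 were higher and 11 lower. There were 16 higher and 7 lower without control 2, 11 and 7 without heme 1, and 14 and 7 without heme 2.

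**Figure D1:**
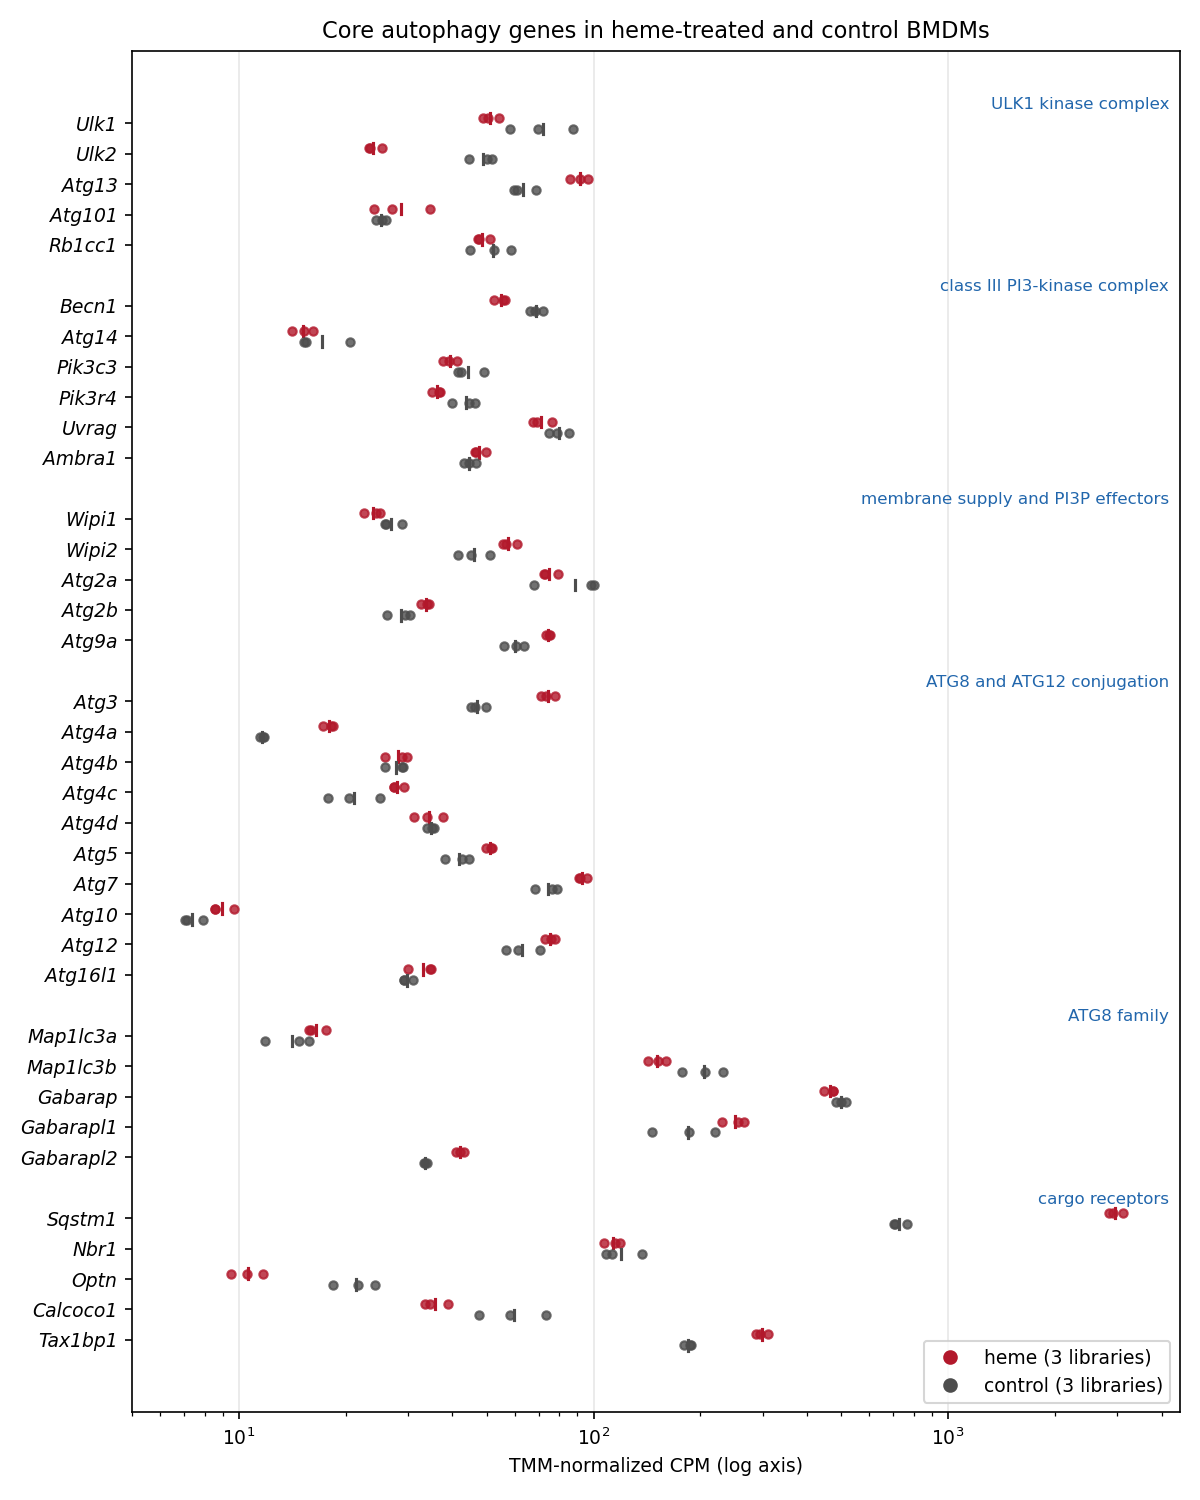
TMM-normalized CPM (log axis) of the 36 genes by role group. Points are libraries (3 heme above 3 control for each gene) and short vertical lines are group means. Sqstm1 stands at 2844 to 3121 CPM with heme and 706 to 764 CPM in controls, while most other genes differ little.

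The cargo receptors went apart. Positions are those of the GENCODE annotation on GRCm38. Sqstm1 (ENSMUSG00000015837, chromosome 11, from 50199366 to 50210827), which encodes p62, a receptor that assembles into filaments with ubiquitin-tagged cargo, had 3121, 2844 and 2914 CPM in the heme libraries, against 706, 764 and 710.2 CPM in the control libraries. All heme libraries were far above all control libraries, a 4.07-fold difference (log2 fold change 2.03, standard error 0.08, adjusted p = 4.85e-08). This was rank 589 of the 12433 tested genes by log2 fold change, within the highest 4.74%. Per length of its exons, Sqstm1 mRNA stood at 882 ± 42.9 CPM per kilobase in heme-treated and 216.5 ± 9.61 CPM per kilobase in control BMDMs (SD, n = 3 each), rank 35 with heme and rank 151 in controls among 12419 tested genes. The neighbouring gene Mrnip shares 17.3% of the exon bases of Sqstm1 on the other strand, but had 547 counts over all libraries, against 318443 for Sqstm1.

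Tax1bp1 (ENSMUSG00000004535, chromosome 6, from 52713729 to 52766780), which encodes a ubiquitin-binding receptor of protein aggregates and bacteria, had 295.5, 288 and 311 CPM in the heme libraries, against 179.7, 188 and 187 CPM in the control libraries. It was higher in every heme library (log2 fold change 0.69, standard error 0.06, adjusted p = 8.76e-06). Optn (ENSMUSG00000026672, chromosome 2, from 5020642 to 5064051), the gene of optineurin, a receptor for damaged mitochondria and bacteria, had 11.7, 9.52 and 10.6 CPM in the heme libraries, against 18.4, 24.2 and 21.7 CPM in the control libraries. Optn was lower in every heme library, by about as much as Ulk2 below (log2 fold change -1.01, standard error 0.12, adjusted p = 7.011e-05). Calcoco1 (ENSMUSG00000023055, chromosome 15, from 102706777 to 102722178), which encodes a receptor for pieces of the endoplasmic reticulum and Golgi, had 38.9, 33.4 and 34.6 CPM in the heme libraries, against 47.4, 73.4 and 58.1 CPM in the control libraries. It fell as well (log2 fold change -0.74, standard error 0.14, adjusted p = 0.00137), with the controls spread more widely than the heme libraries. Nbr1, whose product works beside p62 in ubiquitin-dependent clearance, had 119, 107 and 115 CPM in the heme libraries, against 108, 137 and 112.5 CPM in the control libraries. Its groups overlapped and it did not pass the test (log2 fold change -0.07, standard error 0.09, adjusted p = 0.518); with library sizes alone it was called lower (-0.29).

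Because levels of different genes can be set side by side only per length, the receptor pool was summed as CPM per kilobase of annotated exons. It was 987, 900.1 and 925 in the heme libraries, against 257, 286 and 263 in the control libraries. Sqstm1 made up 94.1% of this pool with heme and 80.6% in controls. The 4 other receptors together stood at 56.8, 52.7 and 56.7 CPM per kilobase with heme, against 46.9, 58.1 and 51.0 CPM per kilobase in controls, so their groups overlapped. Annotated exons include stretches that macrophages may not use, which lowers the per-kilobase level of genes with long annotated ends.

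Among the 10 conjugation genes, 7 were called higher, none was called lower and 3 were not called, with a median log2 fold change of 0.28. That is 70.0% called, against 62.5% of all tested genes in either direction and 31.7% higher. With library sizes as the only scaling, Atg3 and Atg4a were still called higher, Atg4d was called lower, and the median was 0.06. Atg3 (ENSMUSG00000022663, chromosome 16, from 45158785 to 45188538), the gene of the enzyme that hands ATG8 proteins to membrane lipid, had 70.95, 73.55 and 78.1 CPM in the heme libraries, against 46.5, 49.6 and 45.1 CPM in the control libraries. Every heme library exceeded every control library (log2 fold change 0.66, standard error 0.07, adjusted p = 2.567e-05). Atg4a encodes a protease that trims ATG8 proteins and releases them from membranes, and it had 17.2, 18.2 and 18.4 CPM in the heme libraries, against 11.5, 11.7 and 11.7 CPM in the control libraries. Both groups were tight and apart (log2 fold change 0.62, standard error 0.08, adjusted p = 0.000101). Atg4a has a near copy, Atg4a-ps (99.3% identity over 2115 transcript bases, 31 counts over all libraries), so some reads of the pair may not have been assigned.

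Atg7, the gene of the activating enzyme that both conjugation branches need, had 95.6, 90.9 and 91.45 CPM in the heme libraries, against 68.5, 78.7 and 76.2 CPM in the control libraries. It was higher in every heme library (log2 fold change 0.32, standard error 0.07, adjusted p = 0.00306). Atg5, which encodes the partner that ATG12 is joined to, had 49.9, 51.9 and 51.4 CPM in the heme libraries, against 38.2, 44.7 and 42.7 CPM in the control libraries. The groups were again apart (log2 fold change 0.29, standard error 0.07, adjusted p = 0.00679). Atg12 itself, the ubiquitin-like modifier, had 75.9, 73.0 and 77.8 CPM in the heme libraries, against 56.5, 70.6 and 61.3 CPM in the control libraries. Its highest control came within 3 CPM of its lowest heme library (log2 fold change 0.27, standard error 0.09, adjusted p = 0.0206), and the call was lost without heme 1, heme 3 or control 3 (adjusted p = 0.0587, 0.0763 and 0.0648).

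Atg10, which encodes the enzyme that passes ATG12 to ATG5, was the least abundant of the 36 genes in CPM, with 8.59, 9.68 and 8.58 CPM in the heme libraries, against 7.13, 7.91 and 7.03 CPM in the control libraries. It passed the test only narrowly (log2 fold change 0.28, standard error 0.11, adjusted p = 0.0458), and was not called without any 1 of heme 1, heme 2, heme 3, control 1 or control 3 (adjusted p of 0.0697 to 0.147). Atg4c, another ATG8 protease gene, had 29.2, 27.3 and 27.4 CPM in the heme libraries, against 17.8, 25.0 and 20.4 CPM in the control libraries. Control 1 was the lowest library, and Atg4c was called higher (log2 fold change 0.41, standard error 0.12, adjusted p = 0.0116; without control 1, 0.29, adjusted p = 0.0184). Atg16l1, which encodes the subunit that places the conjugation complex on the membrane, averaged 33.1 ± 2.64 CPM in heme-treated and 29.8 ± 0.9795 CPM in control BMDMs and was not called (adjusted p = 0.112), except without heme 2 (0.22, adjusted p = 0.0372). The protease genes Atg4b (0.02 on the log2 scale, adjusted p = 0.862) and Atg4d (-0.02, adjusted p = 0.841) were not called. Atg4d shares 19.3% of its exon bases with Kri1 on the other strand. Summed per kilobase, the 10 conjugation genes stood at 99.8, 99.1 and 102 CPM per kilobase in the heme libraries, against 73.3, 83.0 and 76.9 CPM per kilobase in the control libraries.

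**Figure D2:**
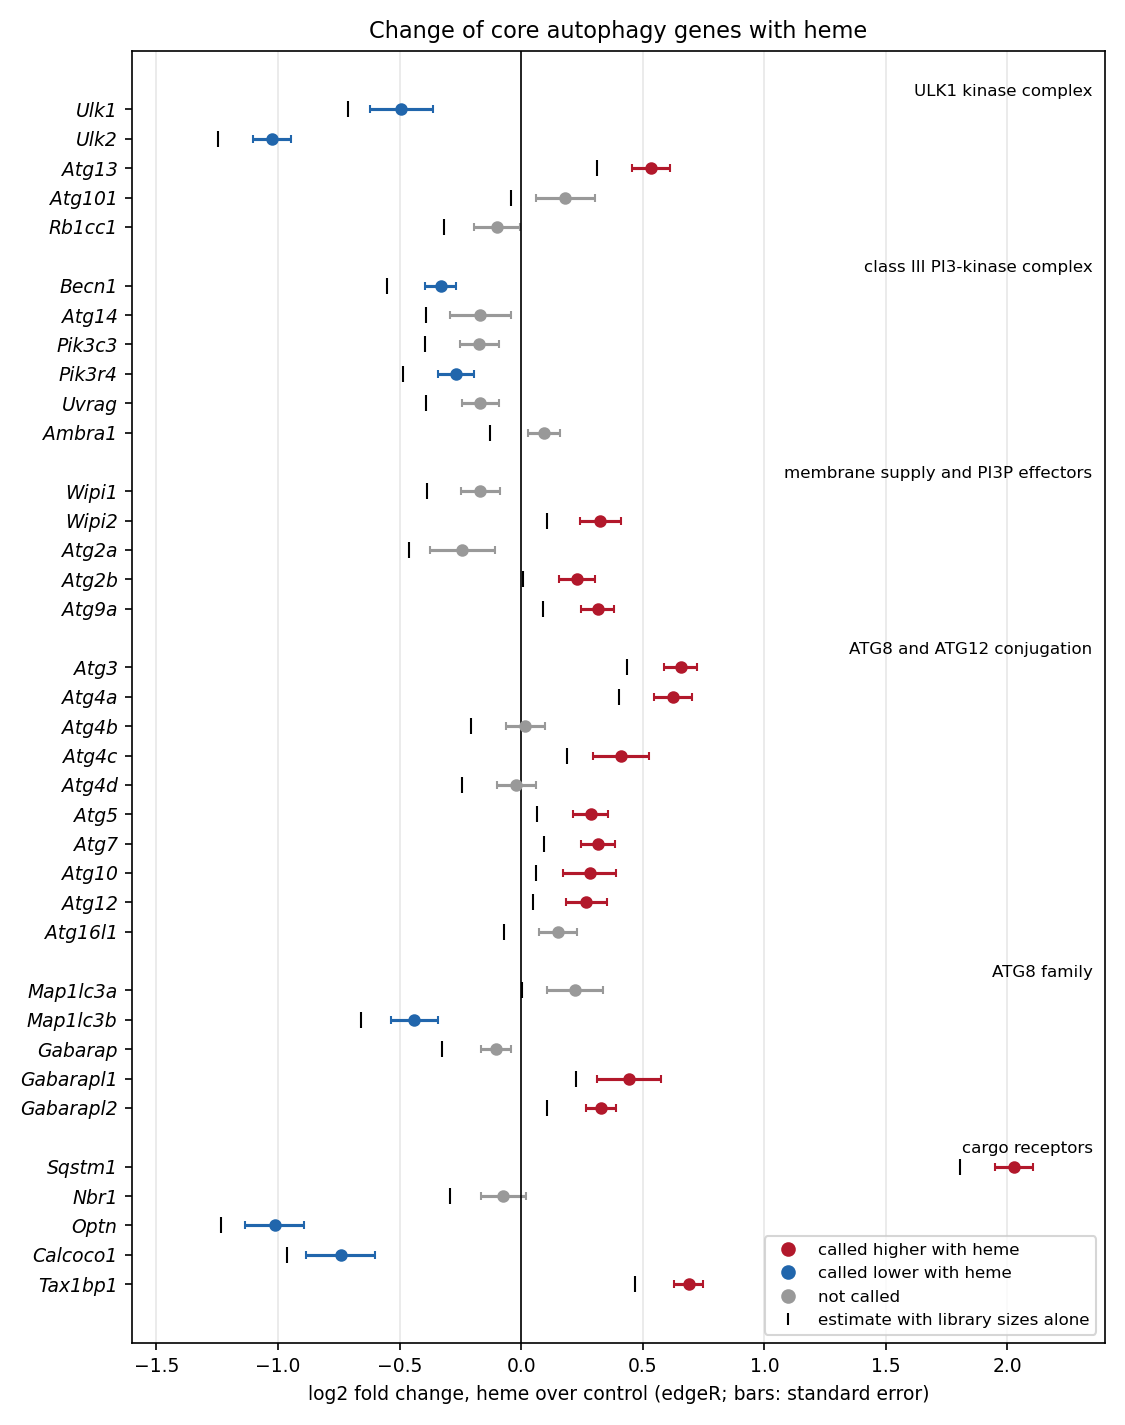
Log2 fold changes (heme over control) by gene and role group. Points are edgeR's estimates after TMM scaling and bars their standard errors; vertical ticks are the estimates with library sizes alone, which lie lower throughout. The estimates run from -1.03 (Ulk2) to 2.03 (Sqstm1).

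Of the 5 ATG8 family genes, 2 were called higher, 1 lower and 2 were not called. The share called was 60.0%, against 62.5% of all tested genes. With library sizes alone, none was called higher, and Map1lc3b and Gabarap were called lower. Map1lc3b (ENSMUSG00000031812, chromosome 8, from 121590361 to 121598760), the gene of LC3B, the ATG8 protein most used as an autophagosome marker, had 159.6, 142 and 152 CPM in the heme libraries, against 177, 232 and 207 CPM in the control libraries. It was lower in every heme library (log2 fold change -0.44, standard error 0.10, adjusted p = 0.003155). Gabarapl1 (ENSMUSG00000030161, chromosome 6, from 129533160 to 129542346), which encodes a GABARAP subfamily member, had 266, 229.6 and 256 CPM in the heme libraries, against 146.5, 220.2 and 186 CPM in the control libraries. The lowest heme library was only just above control 2, and Gabarapl1 was called higher (log2 fold change 0.44, standard error 0.13, adjusted p = 0.0141); without heme 1 the call was lost (adjusted p = 0.0554), and without control 1 the change was 0.30 (adjusted p = 0.0125). The transcript 1700101I11Rik on the other strand covers 28.3% of its exon bases and had no identifier among those counted. Gabarapl2, the gene of GATE-16, had 43.1, 41.0 and 42.0 CPM in the heme libraries, against 33.2, 33.4 and 33.85 CPM in the control libraries. The controls of this gene differed by under 1 CPM, and every heme library lay above them (log2 fold change 0.33, standard error 0.06, adjusted p = 0.001095). Gabarapl2 has 2 processed pseudogenes, Gm3724 and Gm6051, with 99.4% and 98.01% identity over 349 and 352 of its 1677 transcript bases. These pseudogenes had no identifier among those counted.

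Gabarap, the most abundant gene of the family, had 474, 447 and 473 CPM in the heme libraries, against 484, 515 and 499 CPM in the control libraries. The groups did not overlap, yet the difference did not pass the test (log2 fold change -0.10, standard error 0.06, adjusted p = 0.173), except with library sizes alone (-0.33, adjusted p = 0.00105). Map1lc3a, the gene of LC3A, had 17.6, 15.8 and 16.0 CPM in the heme libraries, against 11.9, 15.7 and 14.8 CPM in the control libraries. It was not called (log2 fold change 0.22, standard error 0.11, adjusted p = 0.117), except without control 2 (0.30, adjusted p = 0.0470), and its lowest heme library and highest control differed by less than 0.1 CPM.

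The make-up of the family was also compared within each library, where scaling between libraries plays no part. Of the family total in counts per kilobase of exons, Gabarapl1 made up 29.8, 28.1 and 29.2% in the heme libraries, against 19.0, 24.5 and 22.1% in the control libraries. Gabarapl1 thus held a larger share in every heme library. Map1lc3b held 4.79, 4.66 and 4.65% in the heme libraries, against 6.15, 6.91 and 6.59% in the control libraries, a smaller share in every heme library. Gabarap held 58.8% ± 0.864 in heme-treated and 65.25% ± 3.05 in control BMDMs (SD, n = 3 each). LC3A and LC3B genes together held 7.955% ± 0.190 in heme-treated and 9.42% ± 0.572 in control BMDMs (SD, n = 3 each). Each of these 4 differences had an exact permutation p = 0.1 (two-sided), the smallest that 3 against 3 libraries allow. The LC3 share itself depends on the length used: by coding length it was 10.5% ± 0.218 with heme and 13.02% ± 0.834 in controls, and by counts without length 18.15% ± 0.281 with heme and 23.4% ± 1.12 in controls (SD, n = 3 each). The LC3 share was lower with heme by each of them. Coding length here joins all annotated coding exons of a gene, 999 bases for Map1lc3b and 351 to 574 bases for the other family genes. A long annotated length lowers the share of its gene.

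**Figure D3:**
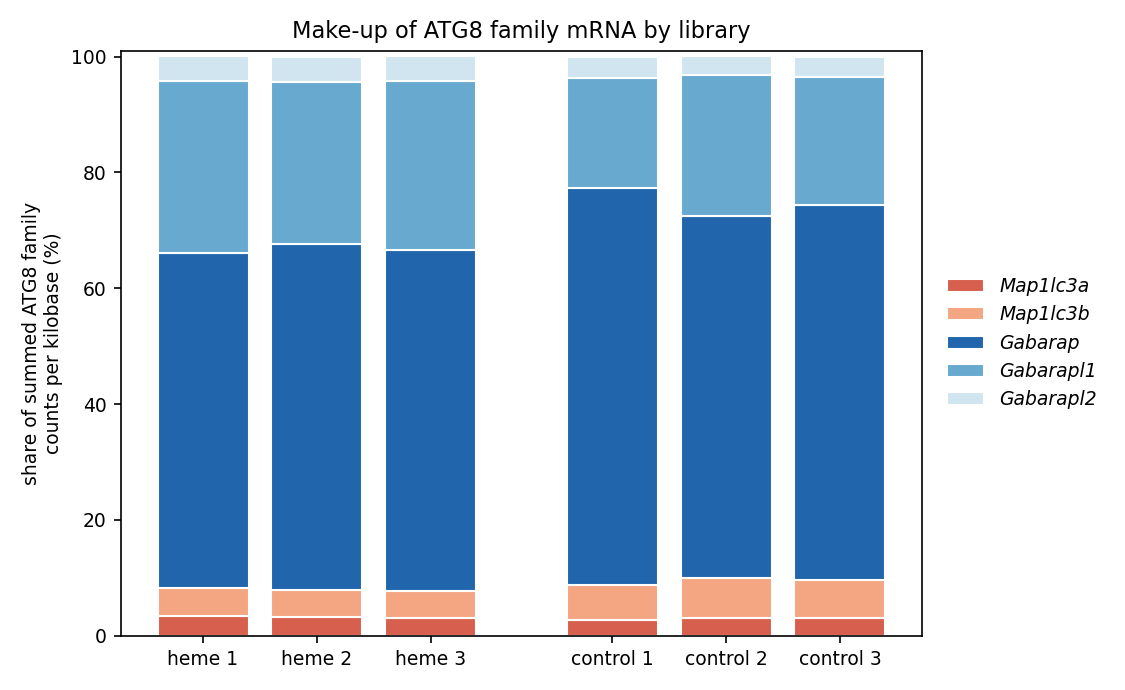
Share of each ATG8 family gene in the summed counts per kilobase of the family, by library (bars from 0 to 100%). The Gabarapl1 share is 28.1% to 29.8% in the heme libraries and 19.0% to 24.5% in the control libraries, and the Map1lc3b share is 4.65% to 4.79% with heme and 6.15% to 6.91% in controls.

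In the initiation group of 16 genes, 4 were called higher, 4 lower and 8 were not called, with a median log2 fold change of -0.17. The share called was below the 62.5% of all tested genes (31.7% higher and 30.8% lower). Without control 1, 3 were higher and 8 lower, against 4071 higher and 3968 lower of all 12571 genes tested there. With library sizes alone 1 was higher and 10 were lower, against 2580 higher and 5814 lower of all 12433 tested genes. Within the ULK1 kinase complex, Ulk2 (ENSMUSG00000004798, chromosome 11, from 61775649 to 61855073), one of its kinase genes, had 23.2, 25.3 and 23.4 CPM in the heme libraries, against 50.2, 51.6 and 44.5 CPM in the control libraries. It was far lower in every heme library (log2 fold change -1.03, standard error 0.08, adjusted p = 3.35e-06). Ulk1, the gene of the other kinase, had 54.0, 48.9 and 50.25 CPM in the heme libraries, against 58.3, 87.7 and 69.9 CPM in the control libraries. Every heme library lay below the lowest control, which was control 1 (log2 fold change -0.49, standard error 0.13, adjusted p = 0.00801; without control 1, -0.63, adjusted p = 0.000154). Atg13, which encodes the adaptor that ties the kinases to their scaffold, went the other way, with 96.7, 85.7 and 91.6 CPM in the heme libraries, against 59.7, 68.9 and 60.7 CPM in the control libraries. It was higher in every heme library (log2 fold change 0.53, standard error 0.08, adjusted p = 0.000240). The scaffold gene Rb1cc1 (FIP200) and Atg101, whose product stabilizes ATG13, overlapped between the groups and were not called (log2 fold changes -0.10 and 0.18, adjusted p = 0.389 and 0.2135). Without control 1, Rb1cc1 was called lower (-0.20, adjusted p = 0.0321). Heme 1 held the highest Atg101 level of all libraries (34.55 CPM), and the other libraries had 24.1 to 27.1 CPM.

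Of the 6 genes of the class III PI3-kinase complex, 2 were called lower and none higher. That is 33.3% called, against 62.5% of all tested genes in either direction and 30.8% lower. Becn1, the gene of the scaffold beclin 1, had 52.6, 56.4 and 55.6 CPM in the heme libraries, against 68.5, 72.2 and 66.3 CPM in the control libraries. The groups were apart (log2 fold change -0.33, standard error 0.06, adjusted p = 0.00147). Cntd1 on the other strand shares 43.9% of the exon bases of Becn1 and had 4950 counts over all libraries, against 11571 for Becn1. The kit kept the strand of the RNA, but the strand setting of the counting is not given in the sources used here, so reads in such shared stretches cannot be placed with certainty. Pik3r4, which encodes the regulatory subunit VPS15, had 36.7, 37.0 and 35.1 CPM in the heme libraries, against 39.95, 46.4 and 44.7 CPM in the control libraries. It was lower (log2 fold change -0.27, standard error 0.07, adjusted p = 0.0104), but not called without heme 3 (adjusted p = 0.0511). Pik3c3, the gene of the lipid kinase VPS34 itself, and Uvrag, which encodes an alternative subunit of the endosomal form, had log2 fold changes of -0.17 and -0.17 and were not called (adjusted p = 0.0883 and 0.0774). Without control 1 both were called lower (-0.22 each, adjusted p = 0.0315 and 0.0279). Atg14, the gene of the subunit that directs the complex to autophagy, averaged 15.2 ± 1.02 CPM in heme-treated and 17.1 ± 3.02 CPM in control BMDMs, and Ambra1, whose product binds beclin 1, averaged 47.6 ± 1.94 CPM in heme-treated and 44.7 ± 1.74 CPM in control BMDMs (SD, n = 3 each); neither was called (adjusted p = 0.267 and 0.238). With library sizes alone, 5 of the 6 genes were called lower, all but Ambra1. Under that scaling 5814 of all 12433 tested genes were called lower.

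Of the 5 genes for membrane supply and PI3P binding, 3 were higher and none was lower (60.0% called, against 62.5% of all tested genes). Atg9a, the gene of the lipid scramblase carried by seed vesicles, had 75.0, 75.3 and 73.2 CPM in the heme libraries, against 63.5, 55.8 and 60.5 CPM in the control libraries. It was higher in every heme library (log2 fold change 0.31, standard error 0.07, adjusted p = 0.00256). A transcript on the same strand, Gm29253, covers 31.8% of the exon bases of Atg9a. It had no identifier among those counted, so its part in the counts of Atg9a is unknown. Wipi2, which encodes a PI3P-binding protein that recruits ATG16L1, had 60.7, 55.5 and 56.5 CPM in the heme libraries, against 41.6, 51.0 and 45.2 CPM in the control libraries. The groups were apart (log2 fold change 0.33, standard error 0.08, adjusted p = 0.00737). Atg2b, the gene of a lipid-transfer protein, rose slightly (log2 fold change 0.23, standard error 0.08, adjusted p = 0.0238), and the call was lost without heme 1, heme 2 or control 1 (adjusted p = 0.0777, 0.0636 and 0.0654). Wipi1 and Atg2a, the paralogs of the previous 2 genes, had log2 fold changes of -0.17 and -0.24 and were not called (adjusted p = 0.0899 and 0.140). Atg2a had 79.5, 72.7 and 73.1 CPM in the heme libraries, against 67.9, 100.1 and 98.5 CPM in the control libraries, so control 1 lay below all heme libraries while the other controls lay above them; without control 1 it was called lower (-0.41, adjusted p = 0.000323). With library sizes alone, none of the 5 was called higher, and Wipi1 and Atg2a were called lower.

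Ratios of counts within 8 pairs of paralogs, which do not depend on scaling between libraries, did not overlap between the groups in any pair. Each had an exact permutation p = 0.1 (two-sided), also after adjustment over the 8 pairs, the smallest that this design allows and above 0.05. These ratios rest on the same counts as the fold changes above, where 68.8% of all single genes did not overlap, and other pairings within the families were not compared. Map1lc3a over Map1lc3b was 0.110, 0.111 and 0.105 in the heme libraries, against 0.0671, 0.0678 and 0.0715 in the control libraries. These are ratios of counts, not of levels per length, and the ratio was higher in every heme library. Atg4a over Atg4b was 0.579, 0.704 and 0.638 in the heme libraries, against 0.396, 0.407 and 0.456 in the control libraries. Gabarapl1 over Gabarap was 0.561, 0.514 and 0.542 in the heme libraries, against 0.303, 0.427 and 0.373 in the control libraries. The first gene of each of these pairs gained on the second by 0.66, 0.61 and 0.57 on the log2 scale. Ulk1 over Ulk2 was 2.32, 1.935 and 2.15 in the heme libraries, against 1.16, 1.70 and 1.57 in the control libraries. Both kinase genes were lower with heme, Ulk2 more so, and the difference of the log2 ratio was 0.55. Wipi1 over Wipi2 was 0.371, 0.439 and 0.442 in the heme libraries, against 0.621, 0.5665 and 0.5735 in the control libraries. Atg2a over Atg2b was 2.31, 2.14 and 2.25 in the heme libraries, against 2.59, 3.40 and 3.24 in the control libraries. Here the second gene gained, with differences of -0.50 and -0.45 on the log2 scale. The differences for Gabarapl2 over Gabarap and Atg4c over Atg4d were 0.43 and 0.45.

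**Figure D4:**
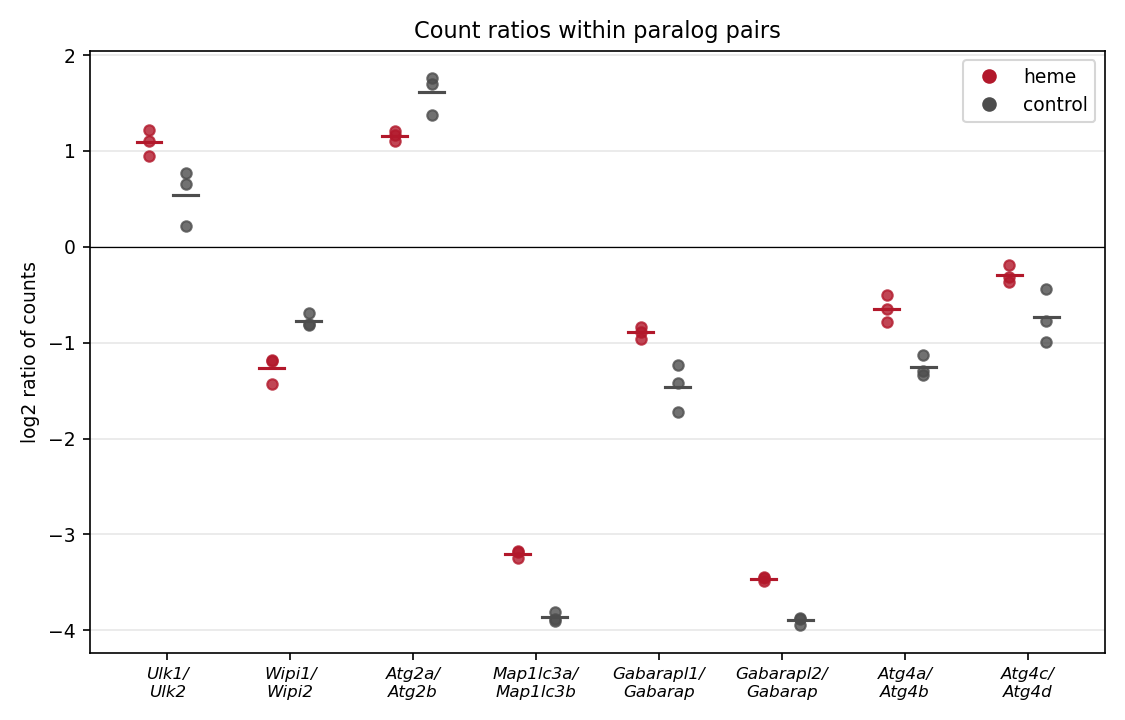
Log2 ratio of counts within each paralog pair, by library (3 heme points left of 3 control points; short lines are group means). In all 8 pairs heme and control points stay apart, with mean differences from -0.50 (Wipi1 over Wipi2) to 0.66 (Map1lc3a over Map1lc3b).

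By level per kilobase, the order of the 36 genes was led by Sqstm1, Gabarap and Gabarapl1 in heme-treated BMDMs and by Gabarap, Sqstm1 and Gabarapl1 in control BMDMs. Gabarap stood at 252 ± 8.22 CPM per kilobase in heme-treated and 271 ± 8.43 CPM per kilobase in control BMDMs, and Gabarapl1 at 124 ± 9.28 CPM per kilobase in heme-treated and 91.5 ± 18.3 CPM per kilobase in control BMDMs (SD, n = 3 each). The next gene was Tax1bp1 with heme (29.8 ± 1.18 CPM per kilobase) and Map1lc3b in controls (27.3 ± 3.66 CPM per kilobase), so the first 3 stood well apart from all others. Of the 35 pairs of neighbours in the order, 14 with heme and 24 in controls differed by less than the larger SD of the pair, among them Atg5 and Atg13 with heme and Tax1bp1 and Atg5 in controls. Atg2b was the lowest in both groups (2.50 ± 0.0715 CPM per kilobase in heme-treated and 2.13 ± 0.162 CPM per kilobase in control BMDMs). The largest shifts in rank belonged to Optn (rank 35 with heme and 26 in controls), Ulk2 (29 and 21) and Calcoco1 (24 and 16). Between libraries of 1 group, the coefficient of variation of the 36 genes had a median of 4.87% with heme and 7.6% in controls, and its highest values were 18.9% for Atg101 with heme and 21.9% for Calcoco1 in controls.

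Other genes of the pathway, 76 in 5 lists, had 16 genes called higher, 34 lower and 26 not called (65.8% called, with a median log2 fold change of -0.16). The share called in either direction is close to that of all tested genes (62.5%, with 31.7% higher and 30.8% lower). By list, the share called ran from 56.2% to 77.8%. Among 17 genes of autophagosome maturation and fusion, 9 were lower and 1, Plekhm1, was higher (0.17, adjusted p = 0.04695). Tecpr1, whose product links autophagosomes to lysosomes, had 248, 210.5 and 219 CPM in the heme libraries, against 433, 533.5 and 475 CPM in the control libraries. It was lower in every heme library (log2 fold change -1.09, standard error 0.09, adjusted p = 7.78e-06). The lowered genes also included Vps33a, a tethering-complex gene (-0.58), Rubcn, whose product restrains the PI3-kinase complex and serves LC3-associated phagocytosis (-0.58), and Vamp8, a fusion-protein gene (-0.49). With library sizes alone, 12 of the 76 genes were called higher and 47 lower.

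Of 16 genes of organelle-selective receptors and their partners, 6 were lower and 3 higher. Retreg1, the gene of an endoplasmic reticulum receptor, had 41.35, 41.5 and 40.5 CPM in the heme libraries, against 77.1, 76.6 and 76.9 CPM in the control libraries. The libraries of each group were nearly equal and the groups far apart (log2 fold change -0.90, standard error 0.06, adjusted p = 9.88e-07). Pink1, which encodes the kinase that flags damaged mitochondria, had 55.7, 52.5 and 51.0 CPM in the heme libraries, against 93.5, 145 and 118 CPM in the control libraries. It was lower as well (log2 fold change -1.16, standard error 0.14, adjusted p = 6.115e-05). The ferritin receptor gene Ncoa4 (-1.23) and Wdfy3, the gene of the aggregate adaptor ALFY (-0.98), fell, while Tex264, the gene of another endoplasmic reticulum receptor (0.45), and the mitochondrial receptor gene Bnip3l (0.21) rose. Of 14 other early-stage factors, 3 were higher and 7 lower. Vmp1, which encodes a scramblase of the endoplasmic reticulum needed for autophagosome formation, had 155, 143 and 154 CPM in the heme libraries, against 60.0, 62.75 and 62.5 CPM in the control libraries. It was well above controls in every heme library (log2 fold change 1.29, standard error 0.06, adjusted p = 1.71e-07). The gene of the ubiquitin ligase Trim21 fell (-1.77), and Bcl2, whose product binds beclin 1, and Snx18, a membrane-shaping gene, rose (0.83 and 0.42).

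Of 18 genes of upstream kinases and mTORC1, the kinase complex that restrains autophagy when nutrients abound, 7 were higher and 7 lower. Prkaa2, which encodes a catalytic subunit of the energy sensor AMPK, had 12.0, 12.6 and 12.0 CPM in the heme libraries, against 2.10, 1.25 and 1.71 CPM in the control libraries. Its level with heme was 7.17-fold that in controls (log2 fold change 2.84, standard error 0.17, adjusted p = 5.73e-07). The sestrin genes, whose products restrain mTORC1, moved apart. Sesn1 had 20.5, 24.0 and 21.1 CPM in the heme libraries, against 134, 159.9 and 115 CPM in the control libraries. Sesn2 had 57.2, 50.1 and 55.35 CPM in the heme libraries, against 24.2, 26.3 and 23.9 CPM in the control libraries. Sesn1 was lower (-2.64) and Sesn2 higher (1.13) in all heme libraries. The mTORC1 inhibitor gene Ddit4 was higher (1.52), and the arginine sensor gene Castor1 was lower (-0.73). Of 11 genes of transcription factors known for autophagy genes, and their regulators, 2 were higher and 5 lower. Atf4, the stress-response factor gene, rose (1.22), as did Hif1a (0.55), and the forkhead factor genes Foxo1 and Foxo3 fell (-0.86 and -0.64). Nfe2l2, the gene of NRF2, and Keap1 were lower (-0.31 and -0.51, adjusted p = 0.00309 and 0.00219). Tfeb was not called (-0.12, adjusted p = 0.308). These values are mRNA levels, and the activity of the factors was not measured.

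**Figure D5:**
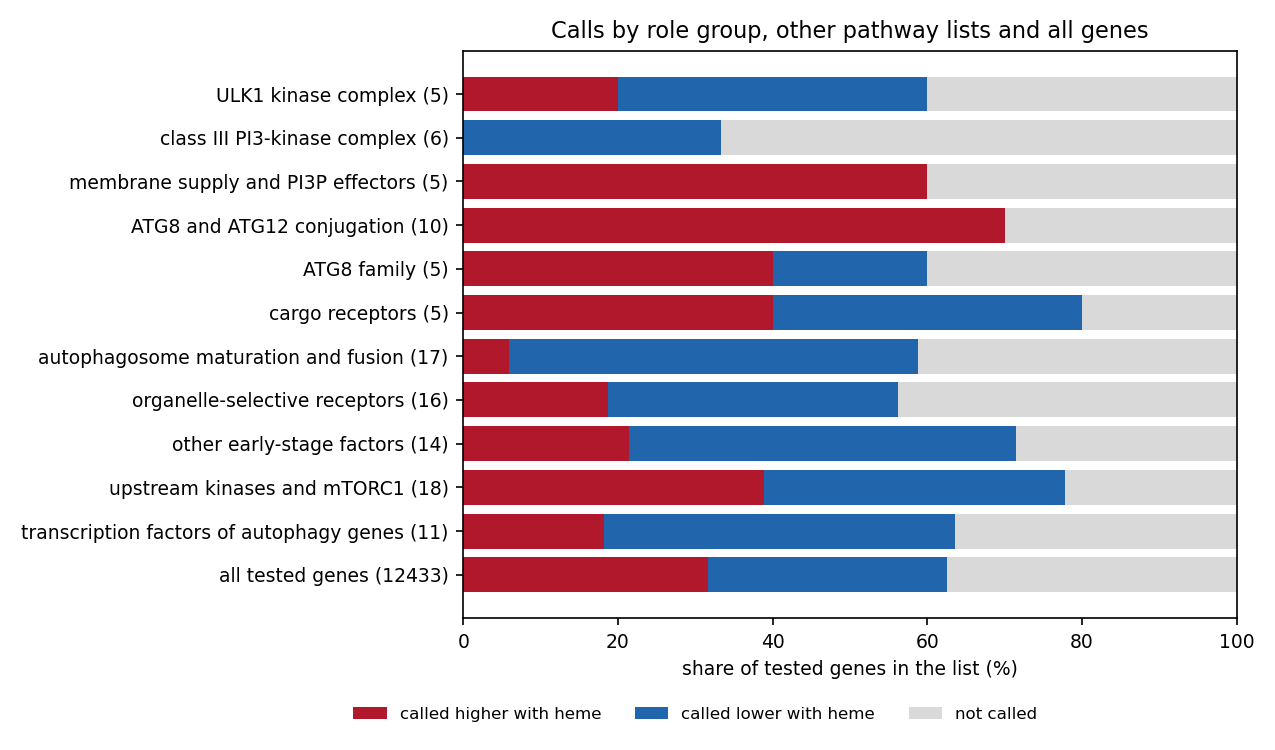
Share of tested genes called higher, called lower and not called in each role group of the 36 genes, in the 5 other pathway lists and among all tested genes (number of genes in brackets). The conjugation group has 70.0% of its genes called, all higher, against 62.5% of all tested genes in either direction.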

How the data were processed

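Bulk RNA-Seq libraries of 3 heme-albumin-treated and 3 albumin-treated BMDM cultures were compared. Per the labels, libraries were made with a stranded TruSeq kit, and the deposited values are raw counts per Ensembl gene, which the authors made with STAR 2.7.0 and featureCounts on GRCm38.p5. Neither how featureCounts treated strand nor its annotation is given in the sources used here. Symbols, gene positions and exon lengths came from GENCODE M21, in which 36 of the 25700 identifiers had no symbol.

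Genes passed edgeR's filterByExpr (minimum count 10), counts were scaled by TMM, and heme was tested against control with the quasi-likelihood test (R 4.3.3, edgeR 4.0.16, limma 3.58.1), adjusted by Benjamini-Hochberg over all 12433 tested genes, with calls under 0.05. The test gives no standard error, so those printed were calculated back from the log2 fold change and the F statistic. Levels are TMM-scaled CPM, and levels of different genes were compared per kilobase of exons. Paralog ratios (0.5 added to each count) and ATG8 shares were taken within libraries and compared by exact permutation tests over libraries. In simulated data of 12336 genes, the test called 28 of 50 genes changed by 0.5 on the log2 scale, 45 of 50 changed by 1, and 8 of 12137 unchanged genes. The simulation changed 200 genes before the filter, with the same dispersion for every gene and without the scaling difference between the groups. In the real data 62.5% of genes were called, so the simulated rates do not carry over to them.

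All 36 genes are named, and in each other list up to 4 called genes with the largest change and up to 2 called genes of the opposite direction. Tfeb, Nfe2l2 and Keap1 are named as well, because TFEB, NRF2 and KEAP1 are introduced above. The members and lists were chosen with earlier results of these data known. Alternatives were median-of-ratios, upper-quartile and library-size scaling, DESeq2 1.42.0, limma-voom, no filter, a mean CPM of at least 1, a replicate block, glmTreat at a log2 fold change of 0.5, and leaving out each library. A count of 3 in a library equals 0.0829 to 0.119 CPM.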

Additional observations from a re-analysis of the deposited data

How the results depend on the processing

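Sqstm1, Tax1bp1 and Atg3 were called higher, and Ulk2 and Optn lower, under all 15 alternatives to the main setting. Of these, only DESeq2 and limma-voom used a method other than edgeR, and all rest on the same libraries. With library sizes alone, 5 of the 36 genes were higher and 16 lower, 2580 of all genes were higher and 5814 lower, and Atg101, Ambra1, Atg4b and Atg16l1 changed sign (-0.0406, -0.13, -0.20 and -0.0701). Against a log2 fold change of 0.5 (glmTreat), 3 of the 36 genes were higher and 2 lower, 7 and 9 of the 76 other pathway genes, and 1816 and 1517 of all genes, since this test asks for a larger change. Atg4b also changed sign with upper-quartile factors (-0.0065). Leaving out each library gave 11 to 16 of the 36 genes higher and 6 to 11 lower, the 11 without control 1. Over the same settings, Atg4b ran from -0.0372 (without control 3; also below 0 without heme 1, -0.02) to 0.0755, Atg4d from -0.0892 to 0.0431 (above 0 without heme 2) and Nbr1 from -0.14 to 0.0300 (above 0 without control 2), none of them called where the sign changed. The difference in the LC3 share, -1.46 percentage points by exon length, was -2.54 by coding length and -5.22 by counts without length. Every paralog ratio kept its direction. Neither scaling nor leaving out a library could reverse one, because the ratios are taken within libraries and did not overlap between the groups. Of single-gene calls among the 36, leaving out a library lost 13 and added 6, and the other alternatives lost 32 and added 9.

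It is unknown whether a heme and a control library of the same number shared a mouse. The correlation of same-numbered residuals was -0.146, -0.191 and -0.109. From only 3 libraries a group, these values cannot decide whether the libraries were paired. The main test was run without a block. With a replicate block, 13 of the 36 genes were higher and 7 lower (3671 and 3493 of all genes), the calls of Atg2b and Atg10 being lost (adjusted p = 0.0526 and 0.0756). With 3 libraries a group, an exact permutation test over libraries cannot give a p below 0.1, and small changes depend on the scaling.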
